A study of Rattus norvegicus with 24 samples.

Results

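Cholesterol synthesis was followed through 8 genes in the cystic rat kidney, Srebf2, Insig1, Hmgcs1, Idi1, Fdft1, Sqle, Lss and Dhcr7. They were taken by symbol from the 17334 genes in the files, and all 8 passed the filter on low counts that left 12778 genes for testing. RNA from the whole left kidney was sequenced in 24 male PKD/Mhm (Cy/+) rats at 8 months of age, with 6 animals in each of 4 groups. Cy/+ animals carry 1 copy of a missense mutation in Anks6 and develop cysts in the renal tubules, and all 4 groups, the untreated one included, share this genotype. The genotype rests on palpation of the abdomen.

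The Ctrl group was untreated. The ipABCB5 group received ABCB5+ cells, human stromal cells grown from skin, into the peritoneum, and the ivABCB5 group received the same kind of cells into a vein. The CoCM group received medium conditioned by ABCB5+ cells that had been grown together with macrophages derived from the THP-1 monocyte line and stimulated with IFN-γ and LPS. Treatment was given monthly over 6 months. The human cells were placed in an animal of another species, and no non-cystic rats were analysed here. The control rats have lower animal numbers than the treated ones, and what the numbers stand for is not given in the sources used here.

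Cells make cholesterol from acetyl-CoA through mevalonate, isoprenoid units, squalene and lanosterol. SREBP2, encoded by Srebf2, is the transcription factor that drives this pathway. When membranes hold enough sterol, INSIG proteins keep the SREBP2 precursor in the endoplasmic reticulum, and when sterol runs short the precursor is carried to the Golgi, cut and released to the nucleus. Srebf2 and Insig1 are the regulators among the 8 genes. The other 6 encode enzymes, which in the order of the pathway are Hmgcs1 (the synthase that makes HMG-CoA), Idi1 (which interconverts the isoprenoid units), Fdft1 (squalene synthase), Sqle (squalene epoxidase), Lss (lanosterol synthase) and Dhcr7 (which carries out a last reduction to cholesterol).

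The stretches upstream of the start sites are shown because SREBP2 acts through short sites in promoters, usually with NF-Y bound to a CCAAT box nearby. A RefSeq promoter table of build GRCr8 held an entry for 6 of the 8 genes. The 250 bases before the start of each were searched on both strands for 2 forms of the sterol regulatory element, ATCACCCCA and TCACNCCAC, which share most of their letters, for CCAAT and for the E-box CACGTG. Below are the stretches for both regulators and for the enzymes whose levels are described together further on, each written 5′ to 3′ on the strand of its gene, with matches in capitals (ATTGG is CCAAT on the opposite strand).
Srebf2 (chr7:115543057-115543306, strand +): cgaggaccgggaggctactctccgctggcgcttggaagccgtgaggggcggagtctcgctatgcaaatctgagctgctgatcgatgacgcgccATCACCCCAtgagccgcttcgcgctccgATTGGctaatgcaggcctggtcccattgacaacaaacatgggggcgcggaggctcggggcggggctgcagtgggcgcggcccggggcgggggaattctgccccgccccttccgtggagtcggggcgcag
Insig1 (chr4:8057770-8058019, strand -): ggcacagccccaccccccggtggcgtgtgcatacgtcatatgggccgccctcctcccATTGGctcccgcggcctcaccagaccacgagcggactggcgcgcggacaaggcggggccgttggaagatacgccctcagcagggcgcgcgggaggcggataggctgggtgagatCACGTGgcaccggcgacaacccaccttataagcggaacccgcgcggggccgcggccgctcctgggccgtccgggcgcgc
Hmgcs1 (chr2:53382054-53382303, strand +): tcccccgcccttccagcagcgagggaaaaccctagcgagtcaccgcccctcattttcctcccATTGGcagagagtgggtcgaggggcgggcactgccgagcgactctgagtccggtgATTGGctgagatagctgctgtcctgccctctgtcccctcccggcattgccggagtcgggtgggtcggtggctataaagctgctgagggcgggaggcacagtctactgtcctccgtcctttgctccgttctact
Idi1 (chr17:66547525-66547774, strand -): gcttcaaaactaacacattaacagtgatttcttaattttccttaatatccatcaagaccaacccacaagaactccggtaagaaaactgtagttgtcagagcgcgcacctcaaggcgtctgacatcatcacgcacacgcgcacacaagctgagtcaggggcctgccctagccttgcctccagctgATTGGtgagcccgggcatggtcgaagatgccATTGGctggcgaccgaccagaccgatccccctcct
Dhcr7 (chr1:208444184-208444433, strand +): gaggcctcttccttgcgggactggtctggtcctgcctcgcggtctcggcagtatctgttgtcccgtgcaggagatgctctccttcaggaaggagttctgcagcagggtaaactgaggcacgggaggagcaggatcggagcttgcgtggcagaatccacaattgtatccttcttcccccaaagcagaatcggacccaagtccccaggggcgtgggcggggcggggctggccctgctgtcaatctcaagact

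ATCACCCCA was found upstream of Srebf2 alone among these 6 genes, starting at position -157 from the start site, with a CCAAT box at -129. That element occurred in 0.212% of the 33469 promoters in the table. TCACNCCAC, present in 0.974% of them, matched in none of the 6. A CCAAT box was also present upstream of Insig1 at -193, of Hmgcs1 at -188 and -133, of Idi1 at -66 and -35, and of Lss at -82. CCAAT is a short motif that 34.017% of all promoters held. CACGTG, found in 5.59% of promoters, occurred upstream of Insig1 at -79. No match was found upstream of Dhcr7, which says only that these letters are not in this window.

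All 8 genes were expressed in every kidney. The lowest estimated count of any of them in any library was 225, for Lss, where libraries held between 9304630 and 14125457 counts, and 3 counts amounted to 0.322 CPM, counts scaled to a common library size, in the smallest. These counts set the counting error only. Levels were compared between genes in TPM, which scales each gene by transcript length and each library to a common total. By median TPM over the 24 animals, Fdft1 was highest at 39.7, followed by Srebf2 at 33.8, Insig1 at 27.8, Sqle at 25.0, Hmgcs1 at 24.7, Idi1 at 19.5, Dhcr7 at 15.3 and Lss at 13.8. Neighbours in this order changed places between animals, and their ranges overlapped in every case. Fdft1 was above Srebf2 in 16 of 24 kidneys, Sqle was above Hmgcs1 in 8 of 24, and Dhcr7 was above Lss in 18 of 24. Hmgcs1 was above Idi1 in 20 of 24.

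**Figure D1:**
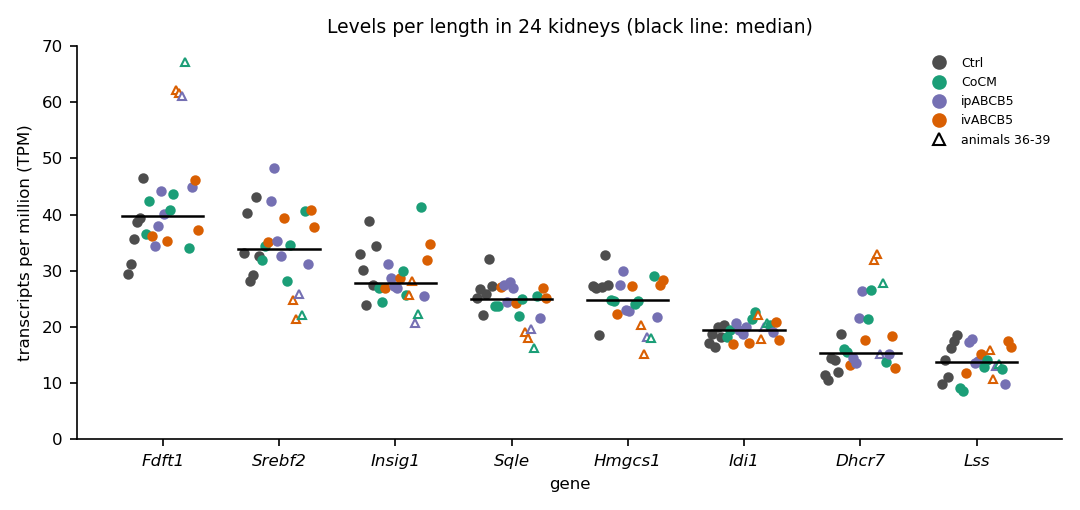
TPM of the 8 genes (y axis) in each of the 24 kidneys, coloured by group, with the median of all animals as a black line and animals 36 to 39 as open triangles. Median levels ran from 13.8 for Lss to 39.7 for Fdft1, and the ranges of neighbouring genes overlapped.

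Libraries from 4 animals, ivABCB5 animals 36 and 37, ipABCB5 animal 38 and CoCM animal 39, stood apart from the other 20 on the first principal component, which held 57.0% of the variance, and results are therefore given with and without them. No control animal was among them. Their markers of injured tubule (5 of 5 genes tested), macrophages (7 of 7) and T cells (5 of 5) were all below the range of the other 20 animals in CPM, with 4 of 6 fibroblast markers and 1 of 4 adrenal cortex markers, while 4 of 10 proximal tubule markers and 2 of 6 thick limb markers were above it. Of all genes tested, 14.2% lay below the other 20 in each of the 4 animals and 10% above them in CPM. In TPM, 3 of 10 proximal tubule and 0 of 6 thick limb markers lay above. Among markers of the distal convoluted tubule, collecting duct, intercalated cells, podocytes, endothelium, fat and the immediate early response, none lay outside it in all 4 animals. The summed CPM of injured tubule markers was 556 to 1009 in these 4 animals and 8108 to 15780 in the other 20. For macrophage markers it was 55.2 to 157.5 and 269 to 792, for T cell markers 11.6 to 33.9 and 88.8 to 203.5, and for proximal tubule markers 11380 to 21000 and 2286 to 9219. None of the markers was at 0 in all 24 animals. Fewer cells of a type and less RNA per cell cannot be told apart in whole tissue.

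None of the 8 genes passed the test in any comparison of groups. Over 32 tests, 4 contrasts of each gene, the smallest adjusted p was 0.383 (edgeR's quasi-likelihood test, Benjamini-Hochberg over all 12778 genes). Few genes of any kind passed. The share of genes with an adjusted p under 0.05 was 0.00783% for CoCM against Ctrl, which was 1 gene, and 0% for ipABCB5 against Ctrl, for ivABCB5 against Ctrl, for ipABCB5 against ivABCB5 and for the F-test over the 4 groups, where 4.71% of genes had an unadjusted p under 0.05. In that F-test the unadjusted p of the 8 genes lay between 0.0726, for Dhcr7, and 0.708, for Srebf2.

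CoCM was compared with Ctrl to ask what conditioned medium did to the kidney without the cells. Dhcr7 and Idi1 had the largest values relative to their error, both toward higher levels under CoCM. They were the 2 of 8 genes with an unadjusted p under 0.05, where 5.96% of all genes reached this toward higher levels and 5.96% toward lower levels, and the 8 genes were chosen with such values known. The median log2 fold change of the 8 genes was -0.015, beside 0.0088 over all genes.

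Dhcr7 ran from 18.9 CPM through a median of 25.9 to 35.5 in Ctrl and from 27.4 through 39.3 to 62.4 in CoCM. The ranges overlapped, and 6 of 6 CoCM animals were above the control mean. The log2 fold change was 0.68 ± 0.30 (SE, n = 6 per group), with an unadjusted p of 0.0315, an adjusted p of 0.391 and a two-sided exact permutation p of 0.0238, where 0.00216 is the smallest that 924 divisions of 12 animals allow. The highest CoCM value came from animal 39. Without animals 36 to 39 the log2 fold change was 0.52 ± 0.21 and the adjusted p 0.245.

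Idi1 ran from 32.1 CPM through 36.2 to 40.2 in Ctrl and from 39.6 through 43.9 to 47.8 in CoCM. All but the lowest pair of CoCM animals, at 39.6 and 40.1, lay above every control animal. The log2 fold change was 0.25 ± 0.11 with an adjusted p of 0.383, and the exact permutation p was 0.0108. Without animals 36 to 39 it was 0.21 ± 0.072 with an adjusted p of 0.221. Higher unadjusted calls made up 7.22% of the 12884 genes tested in that fit, in which Idi1 and Dhcr7 were again the 2 genes under 0.05. Idi1 overlaps the coding gene Wdr37 in the RefSeq annotation, and it was not stated whether counting used strand, so part of its signal is uncertain.

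Fdft1 was also higher on average under CoCM, at 107 ± 34.7 CPM (SD, n = 6) against 82.3 ± 13.2 in Ctrl. The log2 fold change was 0.38 ± 0.24 (adjusted p = 0.491), with a 95% interval from -0.11 to 0.88 that included 0. The CoCM animals ran from 79.9 through 97.8 to 176.5, and the top value was again animal 39. Leaving out animals 36 to 39 brought the log2 fold change to 0.18 ± 0.12. Fdft1 overlaps a non-coding RNA gene, as do Insig1 and Hmgcs1, and Srebf2 hosts Mir33.

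Neither regulator differed from Ctrl beyond its error. Srebf2 had 124 ± 20.5 CPM in CoCM and 124 ± 14.5 in Ctrl, a log2 fold change of 0.0017 with a 95% interval from -0.23 to 0.24. Insig1, whose own transcription responds to SREBP, had 51.2 ± 11.4 and 52.6 ± 10.5, a log2 fold change of -0.04 (interval -0.31 to 0.23). Both intervals exclude a change of 2-fold, while smaller changes remain possible.

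The 95% intervals of the remaining enzymes also included 0. Lss had 28.9 ± 5.84 CPM in Ctrl and 25.4 ± 5.35 in CoCM (log2 fold change -0.19 ± 0.15, adjusted p = 0.563). Sqle, an oxygen-dependent step, had 37.02 ± 2.72 CPM in Ctrl and 34.1 ± 4.02 in CoCM (-0.12 ± 0.086). Hmgcs1 had 61.7 ± 8.86 and 60.4 ± 7.18 (-0.032 ± 0.099). Leaving out animals 36 to 39 gave -0.27 ± 0.15 for Lss, -0.065 ± 0.077 for Sqle and 0.011 ± 0.093 for Hmgcs1.

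**Figure D2:**
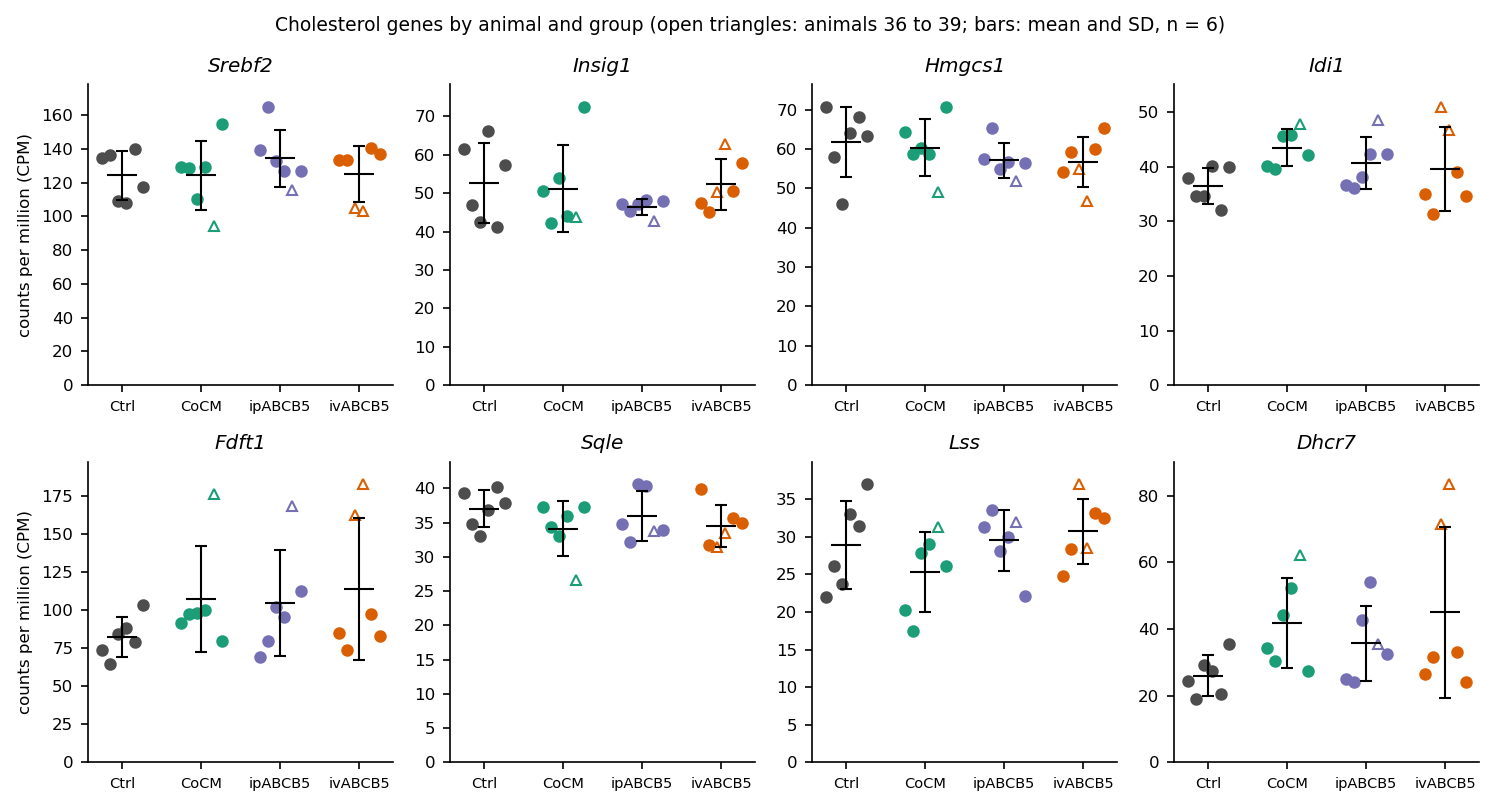
CPM of each gene (y axis, from 0) in each animal of the 4 groups, with the mean and SD of 6 animals as black bars and animals 36 to 39 as open triangles. The ranges of the 4 groups overlapped for all 8 genes, and the 4 open triangles were highest for Fdft1 (162.8 to 183.0 CPM).

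The 2 cell groups were compared with Ctrl to see what the cells did by either route. For ipABCB5 none of the 8 genes had an unadjusted p under 0.05, where 1.26% of all genes reached it toward higher and 0.509% toward lower levels. The median log2 fold change of the 8 was 0.072, beside 0.0037 over all genes. Dhcr7 had the largest value, 0.46 ± 0.30 (adjusted p = 0.978), from 24.3 through 34.1 to 54.2 CPM in ipABCB5. Its value was 0.46 ± 0.21 without animals 36 to 39, with an unadjusted p of 0.043 and an adjusted p of 1.0, in a fit where 0.714% of genes reached 0.05 toward higher levels. With 1 animal left out it ran from 0.285, without ipABCB5 animal 32, to 0.554, without Ctrl animal 24. Fdft1 followed at 0.35 ± 0.24, or 0.16 ± 0.12 without those animals. Insig1 was the most negative at -0.18 ± 0.13. Its 6 ipABCB5 animals lay close together, from 42.6 through 47.2 to 48.1 CPM, inside the control range of 41.2 to 66.1.

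For ivABCB5, Dhcr7 was the 1 gene of 8 with an unadjusted p under 0.05, where 4.44% of all genes reached it toward higher and 1.34% toward lower levels. The median log2 fold change of the 8 was 0.05, beside 0.013 over all genes. Dhcr7 ran from 24.1 through 32.3 to 83.6 CPM and had a log2 fold change of 0.79 ± 0.30 (unadjusted p = 0.0144, adjusted p = 0.673), with a two-sided exact permutation p of 0.0931. The 2 highest ivABCB5 animals were 36 and 37, at 71.6 and 83.6 CPM, and the other 4 lay between 24.1 and 33.1, within the control range. Without animals 36 to 39 the log2 fold change was 0.14 ± 0.22. Fdft1 showed the same dependence on these animals, with a log2 fold change of 0.47 ± 0.24 (adjusted p = 0.673) with them and 0.039 ± 0.13 without them. Idi1 went from 0.12 ± 0.11 to -0.065 ± 0.078.

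ipABCB5 and ivABCB5 were compared directly to ask whether the route mattered. None of the 8 genes had an unadjusted p under 0.05, where 0.689% of all genes reached it toward higher and 1.46% toward lower levels in ipABCB5. Dhcr7 had the widest interval, from -0.95 to 0.28 around a log2 fold change of -0.33, and the sign turned to 0.32 without animals 36 to 39. The intervals of all 8 genes lay within 2-fold in either direction, and those of 6 of them within a log2 fold change of 0.5. In each comparison with Ctrl, the intervals of 7 of the 8 genes lay within 2-fold and those of 6 within 0.5, and Dhcr7 was the gene outside.

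**Figure D3:**
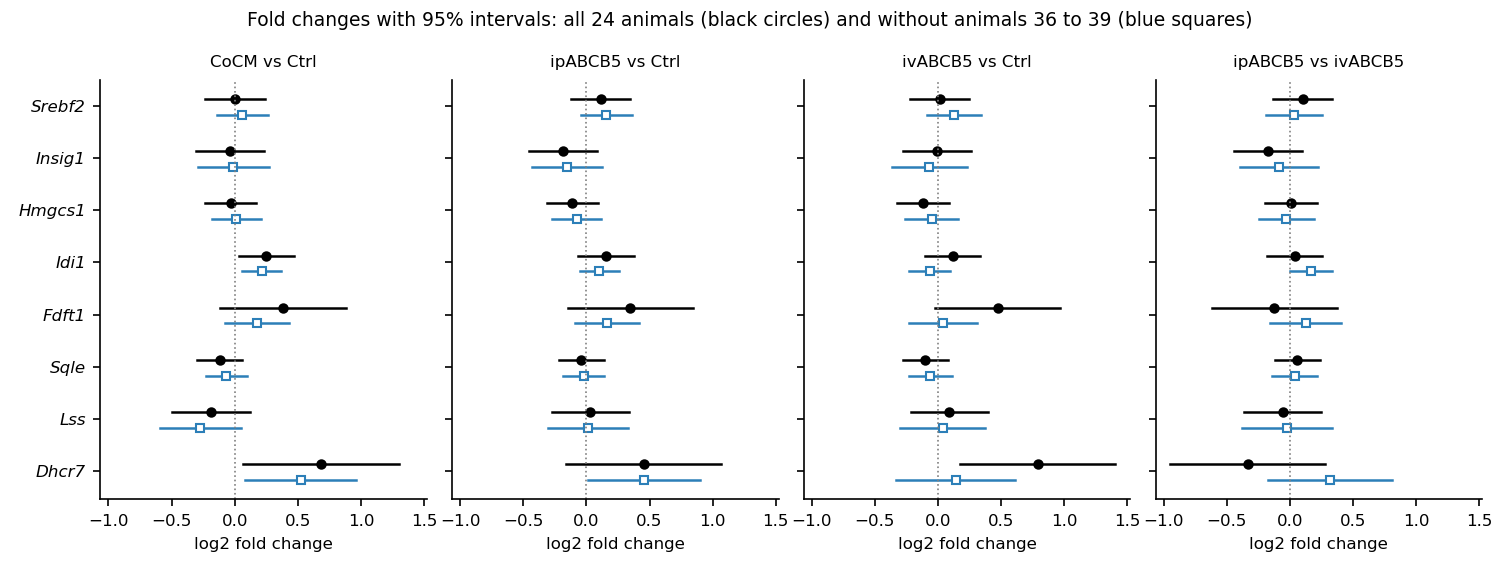
Log2 fold change (x axis) and 95% interval of each gene in 4 comparisons, from all 24 animals (black circles) and without animals 36 to 39 (blue squares). Dhcr7 and Fdft1 had the widest intervals, and for ivABCB5 against Ctrl their values went from 0.79 and 0.47 to 0.14 and 0.039 when those animals were left out.

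Across all animals rather than groups, Dhcr7 varied most, 4.42-fold from the lowest to the highest CPM, followed by Fdft1 at 2.82-fold and Lss at 2.11-fold. Sqle and Hmgcs1 varied least, at 1.53-fold and 1.54-fold. The order was another without animals 36 to 39. Dhcr7 was then at 2.86-fold, Lss at 2.11-fold, Insig1 at 1.76-fold and Fdft1 at 1.74-fold. Hmgcs1 followed at 1.54-fold, Srebf2 at 1.53-fold, Idi1 at 1.46-fold and Sqle at 1.28-fold. Among the 6 controls, the coefficient of variation ran from 7.36% for Sqle to 23.4% for Dhcr7.

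The 8 genes did not share one direction in animals 36 to 39. Fdft1 lay at 162.8, 183.0, 168.4 and 176.5 CPM in animals 36, 37, 38 and 39, all above the other 20 animals at 65.0 to 112.8, and it was also above them in TPM (61.1 to 67.2 against 29.5 to 46.5) and when scaled by library totals alone (138.7 to 158.9 against 72.1 to 112.0). Idi1 was above the other animals in CPM (46.7 to 51.0 against 31.4 to 45.8), but within their range in TPM (17.8 to 22.1 against 16.5 to 22.6) and by library totals alone (37.9 to 43.4 against 33.5 to 46.1). Of all genes tested, 10% were above the other 20 in all 4 of these animals in CPM and 3.55% in TPM. Beside these shares stand 2 of 8 genes in CPM and 1 of 8 in TPM, and the difference was not tested.

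Dhcr7 was high in 3 of these animals, at 71.6, 83.6 and 62.4 CPM, but lay at 35.6 in ipABCB5 animal 38, inside the 18.9 to 54.2 of the other 20. Srebf2 ran from 94.2 to 115.6 CPM against 108.1 to 165.0 in the others, Sqle from 26.6 to 33.8 against 31.8 to 40.6, and Hmgcs1 from 46.8 to 55.0 against 46.0 to 70.8. For these 3 genes all 4 animals were below the median of the others. None of the 8 genes was below the others throughout in CPM, where 14.2% of all genes were. In TPM Srebf2 and Sqle were, 2 of 8 genes beside 22.8% of all genes. Insig1 and Lss overlapped with the other animals on both scales. The part that the shift in cell type markers has in these values was not tested.

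Relations between the genes were computed over the 20 other animals, since the 4 above form a cluster of their own. Log2 CPM was used, and p-values from 100000 permutations were adjusted over 68 relations, 28 between the genes and 40 with 5 measures of the libraries. The levels of Idi1, Fdft1 and Dhcr7 were correlated with each other between animals. Of 11807 genes, 7.26% had an r above 0.7 with Fdft1 and 5.78% with Dhcr7, so such values were not rare for these. For Idi1 the share was 0.305%, and both of its correlations given here lie below 0.7. The correlation of Fdft1 with Dhcr7 was 0.73 (Spearman 0.79, permutation p = 0.00024, adjusted 0.00816, Spearman permutation p = 8e-05, adjusted 0.00272). For Idi1 with Dhcr7 it was 0.69 (Spearman 0.70, permutation p = 0.00075, adjusted 0.017, and 0.00094, adjusted 0.016, for Spearman). For Idi1 with Fdft1 it was 0.66 (Spearman 0.70, permutation p = 0.00183, adjusted 0.0275, and 0.00071, adjusted 0.016, for Spearman).

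These 3 relations held at 0.74, 0.75 and 0.62 without the 2 animals farthest from the median of the first gene, at 0.68, 0.62 and 0.64 after the group means were subtracted, and at 0.65, 0.55 and 0.51 in TPM. In TPM other pairs were as high, so the order of the pairs depended on the scale. Among them were Srebf2 with Hmgcs1 at 0.70, Insig1 with Hmgcs1 at 0.59, Sqle with Lss at 0.57 and Hmgcs1 with Lss at 0.56. In log2 CPM, Insig1 and Hmgcs1 formed the next pair at 0.57 (Spearman 0.43, permutation p = 0.00789, adjusted 0.066, and 0.0623, adjusted 0.25, for Spearman), which did not pass after adjustment, and r fell to 0.41 without 2 animals. The median r of the 28 pairs was 0.085. The r of Srebf2 with Idi1, Fdft1 and Dhcr7 was -0.28, -0.40 and -0.38 (Spearman -0.44, -0.57 and -0.59), with adjusted permutation p-values of 0.529, 0.33 and 0.354 (0.25, 0.0789 and 0.065 for Spearman), so that none of these relations passed. After the group means were subtracted, these values were larger, at -0.46, -0.58 and -0.66, and they were not tested in that form.

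**Figure D4:**
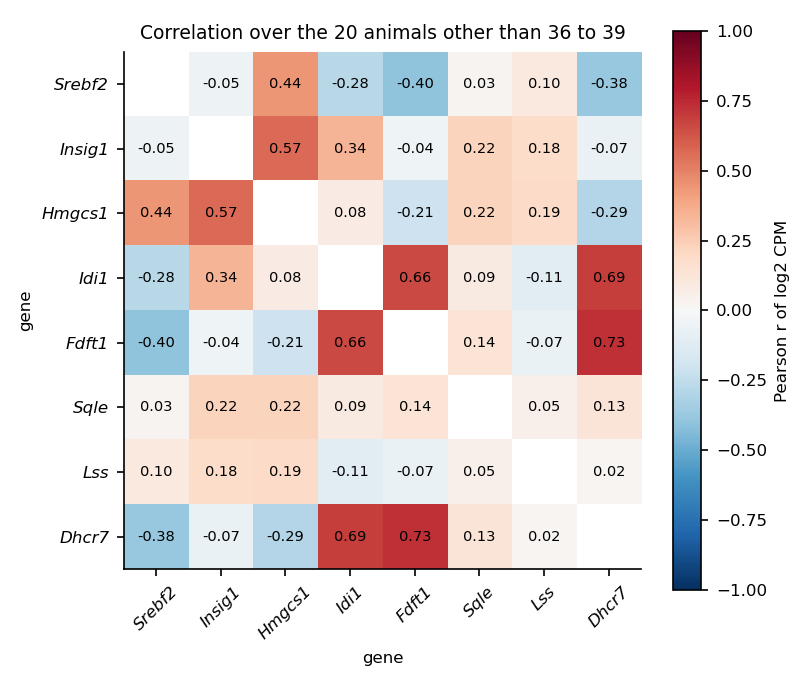
Pearson r of log2 CPM (colour and number) between each pair of the 8 genes over 20 animals. Idi1, Fdft1 and Dhcr7 form a block at 0.66 to 0.73, and Insig1 with Hmgcs1 reaches 0.57.

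The summed CPM of markers of the proximal tubule, the segment that reabsorbs most of the filtrate, correlated with Fdft1, Dhcr7 and, negatively, Srebf2. Such a sum gives most weight to abundant markers. Median CPM was 1813 for Slc34a1, 936 for Kap and 834 for Lrp2, but 65.9 for Slc5a12. No marker was related to the genes singly. Over the 20 animals, the summed CPM of 10 such markers correlated with Fdft1 at 0.65 (Spearman 0.65, permutation p = 0.00255, adjusted 0.0275, and 0.00244, adjusted 0.0332, for Spearman) and with Dhcr7 at 0.63 (Spearman 0.59, permutation p = 0.00261, adjusted 0.0275, and 0.00765, adjusted 0.065, for Spearman). For Srebf2 the correlation was negative, at -0.63 (Spearman -0.63, permutation p = 0.00283, adjusted 0.0275, and 0.00348, adjusted 0.0394, for Spearman). The relation with Idi1 did not pass, at 0.36 (Spearman 0.39, permutation p = 0.119, adjusted 0.387, and 0.0927, adjusted 0.293, for Spearman). After subtraction of group means the values for Fdft1, Dhcr7 and Srebf2 were 0.68, 0.71 and -0.77, and without the 2 farthest animals 0.60, 0.62 and -0.56. Fdft1 and the summed macrophage markers correlated at -0.57 (Spearman -0.54, permutation p = 0.00874, adjusted 0.066, and 0.0163, adjusted 0.111, for Spearman), which did not pass after adjustment. What the share of proximal tubule RNA contributes to the link between Fdft1 and Dhcr7 was not tested.

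**Figure D5:**
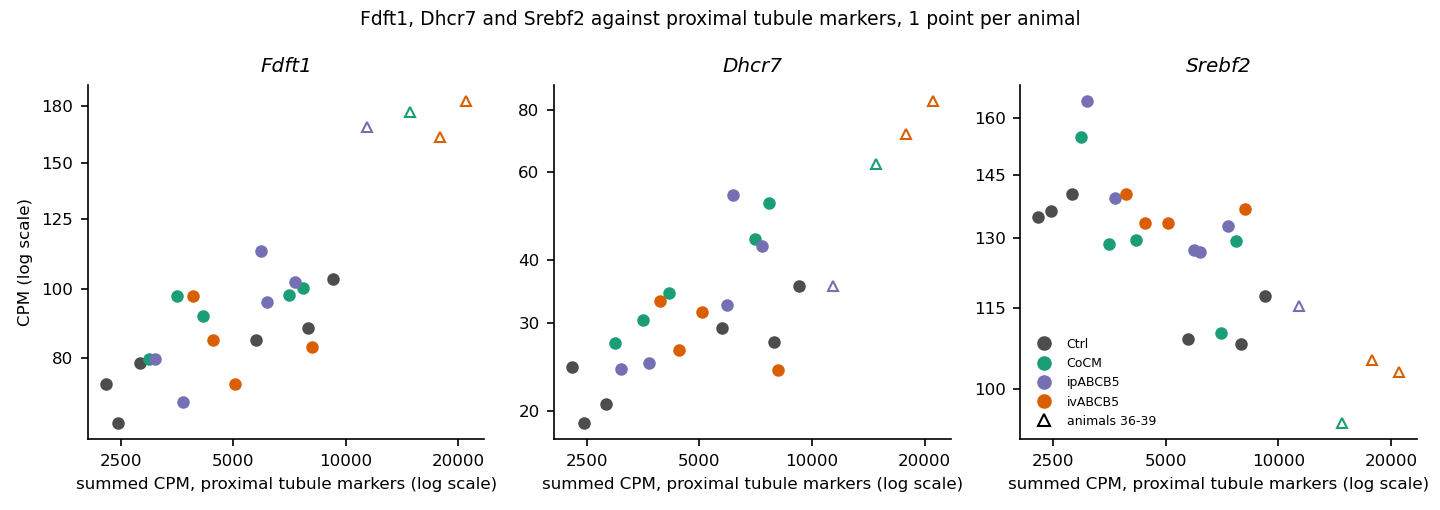
CPM of Fdft1, Dhcr7 and Srebf2 (y axis, log scale) against the summed CPM of 10 proximal tubule markers (x axis, log scale), 1 point per animal, with animals 36 to 39 as open triangles. Over the 20 filled points r was 0.65, 0.63 and -0.63.

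Lss followed another measure. For each library, the slope of log2 CPM, centred by gene, on the log2 ratio of counts to TPM, which stands for transcript length, was taken as a length trend. It ran from -0.091 to -0.013 in CoCM, -0.052 to 0.1035 in Ctrl, -0.087 to 0.1025 in ipABCB5 and -0.083 to 0.076 in ivABCB5. Lss correlated with it at 0.80 (Spearman 0.83, permutation p = 5e-05, adjusted 0.0034, Spearman permutation p = 1e-05, the smallest that 100000 permutations give, adjusted 0.00068), at 0.76 without the 2 farthest animals and at 0.75 after subtraction of group means. In log2 CPM, Idi1, Fdft1 and Dhcr7 ran against the trend at -0.51, -0.47 and -0.43, with adjusted permutation p-values of 0.136, 0.194 and 0.239. In TPM, Hmgcs1, Srebf2 and Sqle also went with the trend, at 0.73, 0.68 and 0.62, beside 0.90 for Lss. An r above 0.7 with Lss was shared by 11.8% of 11807 genes. The part of this trend in the differences of Lss and the other genes between animals or groups was not tested.

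The genes most like each of the 8 were taken by Pearson r of log2 CPM over the same 20 animals, among 11807 genes, as a description. Fdft1 was closest to Slc25a5 (0.936), the mitochondrial carrier of ADP and ATP, Pmpcb (0.934), a subunit of the mitochondrial processing peptidase, and Pccb (0.93), a subunit of propionyl-CoA carboxylase. Dhcr7 was closest to Tyro3 (0.912), Sphk2 (0.905) and Cyp2d1 (0.902), and Lss to Exoc4 (0.962), Gnl3l (0.956) and Sel1l (0.952). Srebf2 was closest to Foxp1 (0.869), Arhgef2 (0.771) and Gabrp (0.766), and Insig1 to Pdzrn3 (0.805), Zdhhc3 (0.737) and Aox3 (0.704). Idi1 was closest to Thtpa (0.765), Ten1 (0.764) and Arg2 (0.757).

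Hmgcs1 and Sqle had no named partner above 0.7. The closest named were Gbp4 (0.663), Zfp91 (0.653) and Map9 (0.652) for the first and Pex19 (0.663), Rig1 (0.625) and Mall (0.593) for the second. Of all genes compared, 0.00847% were above 0.7 with Hmgcs1 and 0% with Sqle. Among the 50 most alike, other genes of cholesterol synthesis occurred for Hmgcs1, with Cyp51 and Insig1, and for Idi1, with Msmo1 and Dhcr7. For the other 6 genes the number was 0.

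The rest of the pathway was read from 5 further lists. No gene of any of them passed the test after adjustment in any contrast. Counts at an unadjusted p under 0.05 in these lists stand beside 5.96% of all genes higher and 5.96% lower in CoCM, 1.26% and 0.509% in ipABCB5, and 4.44% and 1.34% in ivABCB5, each against Ctrl. Of 15 other genes of cholesterol synthesis, 0 had an unadjusted p under 0.05 for CoCM against Ctrl or ipABCB5 against Ctrl. For ivABCB5 against Ctrl 1 did, toward higher levels. It was Tm7sf2, a sterol reductase, at 19.1 ± 10.2 CPM in ivABCB5 and 13.0 ± 2.23 in Ctrl (adjusted p = 0.673), and its log2 fold change of 0.55 was 0.0012 without animals 36 to 39. The median log2 fold change of these 15 genes was 0.099, 0.051 and 0.067 for CoCM, ipABCB5 and ivABCB5 against Ctrl, beside 0.0088, 0.0037 and 0.013 over all genes. It was 0.103, 0.014 and -0.014 without animals 36 to 39, beside -0.0044, 0.00016 and -0.0043 over all genes. For ipABCB5 against ivABCB5 the count was 0 in all 5 lists.

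Of 9 genes tested that control SREBP processing, 1 had an unadjusted p under 0.05 in any contrast, Mbtps1 in CoCM against Ctrl, the first protease that cuts SREBP. It had 171 ± 14.1 CPM in CoCM and 193 ± 17.2 in Ctrl (log2 fold change -0.17 ± 0.076, adjusted p = 0.396). The median over these 9 genes was 0.0053, 0.0095 and 0.054 in the 3 comparisons with Ctrl, beside the same all-gene medians. It was -0.085, -0.0098 and -0.0031 without animals 36 to 39. Of 11 genes of cholesterol uptake and transport, 1 was lower in CoCM at that level and 1 in ipABCB5. The first was Mylip, a ubiquitin ligase that limits lipoprotein receptors, with 62.9 ± 7.24 CPM against 75.0 ± 11.1 in Ctrl (-0.25 ± 0.11, adjusted p = 0.395). The second was Lipa, the lysosomal acid lipase that frees cholesterol from its esters, with 186 ± 16.8 CPM against 211 ± 16.4 (-0.19 ± 0.082, adjusted p = 0.978). The median over these 11 genes was -0.15, -0.094 and -0.16, beside 0.0088, 0.0037 and 0.013 over all genes. Leaving out animals 36 to 39 brought it to -0.146, -0.048 and -0.046.

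Of 10 genes of efflux and storage, 1 was higher in CoCM at an unadjusted p under 0.05, Nr1h2, which encodes the oxysterol receptor LXR-beta, with 181 ± 4.90 CPM against 168 ± 7.82 in Ctrl (0.11 ± 0.049, adjusted p = 0.396). The median over these 10 genes was -0.086, -0.048 and -0.13, beside the same values over all genes. It was -0.065, -0.061 and -0.016 without animals 36 to 39. Of 12 genes of fatty acid synthesis, most of them targets of the related factor SREBP1, 3 were lower in CoCM, 1 was lower in ipABCB5 and 3 were higher in ivABCB5 at that level, beside 5.96%, 0.509% and 4.44% of all genes. Their median was -0.20, -0.094 and -0.12, beside 0.0088, 0.0037 and 0.013 over all genes, and -0.18, -0.098 and -0.051 without animals 36 to 39. Acly, which makes cytosolic acetyl-CoA, had 119 ± 9.41 CPM in CoCM and 121 ± 12.7 in ipABCB5 against 135 ± 7.24 in Ctrl, with adjusted p-values of 0.381 and 0.978. Acaca, the enzyme that makes malonyl-CoA, had 13.9 ± 4.03 CPM in CoCM against 21.6 ± 6.88 (-0.64 ± 0.27, adjusted p = 0.383). The third was Gpam, which starts glycerolipid synthesis, at -0.76 ± 0.34 (adjusted p = 0.4001). In ivABCB5, the log2 fold changes of Me1 (0.85, malic enzyme), Pnpla3 (1.25) and Acss2 (1.55, which makes acetyl-CoA from acetate) were 0.056, 0.088 and -0.059 without animals 36 to 39. Gpam and Acss2 were named after their values were seen, to complete these counts.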

How the data were processed

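Total RNA of 24 left kidneys was sequenced on a BGISEQ-500 platform. The authors deposited estimated counts and TPM values per Entrez gene for each animal, and the submitters' processing notes list Trim Galore 0.6.4, kallisto and the build rn6, while the annotation is not given in the sources used here. The study names DESeq2 and a human gene model package. TPM values, which the authors deposited as scaled by length and library, summed to 964191 to 976409. Symbols came from a RefSeq table of GRCr8, which held 17179 of 17334 identifiers. Counts were rounded, filtered with filterByExpr by group, scaled by TMM and tested across all 24 samples with edgeR 4.0.16 (quasi-likelihood test, R 4.3.3), with a threshold of 0.05 on Benjamini-Hochberg adjusted p-values. DESeq2 1.42.0 and limma 3.58.1 were alternatives. CPM values use the TMM factors, and log2 CPM a prior count of 0.5. Exact permutation tests used log2 CPM. Labels give separate animals as replicates, and no sample was left out of the main fit. On simulated data for CoCM against Ctrl (12719 genes, 200 changed), edgeR recovered 67% of 2-fold and 88% of 4-fold changes. The simulated counts were drawn separately for each gene around a common mean, without libraries that stand apart. These rates therefore do not carry over to the real data.

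The 8 genes and all lists were chosen with earlier results of these data known. A few genes of the pathway are not reported here. From each pathway list, up to 2 genes per contrast were named, those with the smallest unadjusted p under 0.05 and an average log2 CPM above 1. For each of the 8 genes, the 3 most correlated genes above that level were named, leaving out genes without a proper symbol.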

Additional observations from a re-analysis of the deposited data

Results flagged for a closer look

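In the 32 sets of 6 animals (8 genes in 4 groups), the highest or lowest value was compared with the gap to its neighbour by Dixon's criterion, for which 0.625 of the range is the 95% limit with 6 samples. Both values past it came from CoCM animal 39, 1 of the 4 libraries that stood apart, and chance alone would give about 1.6 such values in 32 sets. Fdft1 was 176.5 CPM in that animal, while the other 5 CoCM animals lay between 79.9 and 100.4, a gap of 0.713 of the range. Sqle was 26.6 CPM, while the others lay between 33.04 and 37.3, a gap of 0.639. For ivABCB5, where 2 of 6 animals stood apart together, this criterion cannot single out either of them.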

How the results depend on the processing

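None of the 8 genes reached an adjusted p under 0.05 in any of 9 alternatives or with any 1 of 24 animals left out, where the lowest adjusted p was 0.137 (limma voom with sample weights, Dhcr7 and Idi1 in CoCM) and 0.256. Of 288 fold changes under the alternatives 265 kept their sign and 23 did not, none above 0.335 in size, and their cause was not tested. For Srebf2 in CoCM against Ctrl the log2 fold change was -0.00406 with median-ratio factors, -0.0034 in DESeq2, -0.00654 with at least 10 counts in every sample, -0.111 in TPM and -0.0345 with library totals alone, an alternative added after seeing the data. For Srebf2 in ivABCB5 against Ctrl it was -0.00613, -0.0732 and -0.068 in the last 3 of these. Lss was -0.0176 in ipABCB5 against Ctrl in TPM, and with library totals -0.00576 in ivABCB5 against Ctrl and 0.00655 in ipABCB5 against ivABCB5. With voom weights Hmgcs1 was 0.0218 in CoCM, Sqle 0.0726 in ipABCB5 and Idi1 -0.0831 in ivABCB5, each against Ctrl, and in ipABCB5 against ivABCB5 Srebf2 was -0.0051, Hmgcs1 -0.0625, Fdft1 0.179 and Dhcr7 0.335. Without animals 36 to 39 Hmgcs1 was 0.0114 in CoCM and Idi1 -0.0652 in ivABCB5 against Ctrl, and Hmgcs1 -0.0268, Fdft1 0.125 and Dhcr7 0.315 in ipABCB5 against ivABCB5.

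With 1 animal left out, 726 of 768 fold changes kept their sign. For CoCM against Ctrl, Srebf2 ranged from -0.0705 to 0.0725, Hmgcs1 from -0.103 to 0.0221 and Insig1 from -0.166 to 0.0208. For ivABCB5 against Ctrl, Srebf2 ranged from -0.0382 to 0.0552 and Insig1 from -0.0832 to 0.0516, and for ipABCB5 against Ctrl, Lss from -0.0352 to 0.106. For ipABCB5 against ivABCB5, Fdft1 ranged from -0.299 to 0.0615, Hmgcs1 from -0.0373 to 0.0547, Idi1 from -0.0144 to 0.121 and Lss from -0.102 to 0.0181.

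Over all genes, the 1 gene called for CoCM against Ctrl became 81 in DESeq2, 183 with voom weights and 0 with only the groups compared, in TPM, without animals 36 to 39 and with library totals alone, and 0 to 31 with 1 animal left out. DESeq2 called 1 gene for ivABCB5 against Ctrl, 1 for ipABCB5 against ivABCB5 and 10 over the 4 groups, where voom weights called 1 and leaving out 1 animal 0 to 1. No paired analysis was possible because no animal number occurs in more than 1 group. Whole kidney RNA, 6 animals a group and 4 libraries that stand apart limit what can be seen.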

Other observations

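The ranges of some lipid genes outside the 8, chosen after their values were seen, are given here. Acss2, which makes acetyl-CoA from acetate, ran from 62.8 to 637 CPM in the 20 animals other than 36 to 39 and from 348 to 1352 in those 4, and the 6 controls alone spanned 62.8 to 491. Scd, a fatty acid desaturase, ran from 2.47 to 24.7 CPM in the 20 animals and from 0.683 to 3.32 in the 4. Ch25h, which makes an oxysterol that restrains SREBP processing, ran from 13.9 to 74.3 CPM and from 5.69 to 20.9. Lrp1 and Scarb1, receptors that take up lipoprotein lipids, were lower in each of the 4 animals than in any of the other 20, at 36.9 to 96.5 CPM against 97.4 to 225 for Lrp1 and at 18.6 to 31.1 against 39.1 to 61.3 for Scarb1. They were 2 of 11 genes of uptake and transport, beside 14.2% of all genes that lay below the other 20 in the same way. In TPM 6 of the 11 lay below, beside 22.8% of all genes. These ranges are values and were not tested.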
